A study of Mus musculus with 21 samples.

Results

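The Kruppel-like factors (KLFs) are a family of transcription factors, and 10 of their genes were followed here by symbol: Klf1, Klf2, Klf3, Klf4, Klf5, Klf6, Klf7, Klf9, Klf10 and Klf13. All 10 were found, among 19321 genes with values in the coculture libraries and 27968 in the libraries of PSCs and sorted cells. RNA-seq was done on 21 libraries, 3 in each of 7 groups. Hematopoietic-like colonies from 129/ola mouse PSCs, after 6 to 8 days of 3D induction, were reseeded with SCF, IL-3 and Flt3 ligand either on mitomycin C-treated OP9 stromal cells (3D+OP9) or on 0.1% gelatin (3D+0.1%gelatin), and total cells were taken on day 5. From the 3D+OP9 culture, D5-LSKCD201+ and D5-LSKCD201- cells were sorted on day 5 as Lin- Sca-1+ c-kit+ (LSK) cells with or without the surface protein CD201. They were set beside the undifferentiated 129/ola PSCs (mESC, grown on mouse embryonic fibroblasts and sorted on SSEA-1), LSKCD201+ cells of E12.5 C57BL/6 fetal liver (FL-LSKCD201+) and LSKCD201+ cells of bone marrow from C57BL/6 mice aged 6 to 8 weeks (BM-LSKCD201+). By the labels all cultured groups were 129/ola and tissue groups C57BL/6, so strain and origin cannot be told apart, although the study's methods name PSC lines of both strains.

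The labels were checked first. Procr, which encodes CD201, was at 57.9 to 61.9 FPKM (fragments scaled to gene length and library size) in D5-LSKCD201+ and at 3.02 to 3.82 in D5-LSKCD201-. Ptprc, the leukocyte surface protein CD45, was under 1 FPKM in all 6 D5 libraries and between 38.4 and 71.6 in FL-LSKCD201+ and BM-LSKCD201+, so a defining blood marker was near 0 in both cultured LSK groups. The summed FPKM of 7 pluripotency markers was 3481 to 3909 in D5-LSKCD201-, 6299 to 6843 in mESC and 22.7 to 30.4 in D5-LSKCD201+. The summed FPKM of 10 endothelial markers was 2221 to 2254 in D5-LSKCD201+ and at most 492 in every other sorted group. FL-LSKCD201+ was sorted as Lin- but its 11 erythroid markers summed to 22582 to 46409 FPKM, against at most 402 in the other sorted groups. Replicate 3 of 3D+OP9, replicate 1 of BM-LSKCD201+, replicate 1 of FL-LSKCD201+ and replicate 2 of D5-LSKCD201- each lay far from the other libraries of their group across all genes. Some results of the members are also given without them, whereas the gene lists and their genes are given with all libraries only.

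KLF proteins share a conserved zinc-finger domain that binds GC-rich DNA and CACCC boxes, and differ in the rest of the protein, through which they recruit coactivators or corepressors. KLF1 is the erythroid member and drives adult beta-globin transcription. KLF2 is known for endothelial quiescence under flow and for lymphocyte trafficking, and KLF2, KLF4 and KLF5 act together in the naive pluripotency network. KLF3 recruits CtBP corepressors, whereas KLF9, KLF10 and KLF13 recruit the SIN3A corepressor.

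Promoter sequences are shown for Klf1 (the member highest in fetal liver), Klf2 (the member called between the cocultures) and the pair Klf4 and Klf9, whose levels were correlated over the sorted libraries. They are RefSeq windows on GRCm38.p6 from 250 bases before to 50 bases after the gene start, written 5′ to 3′ on the gene's strand, with capitals for the CACCC box, the kind of site that the zinc fingers of this family bind. The letters GATAA, called a GATA-type motif here, are also in capitals, and both were searched on either strand. Klf1 is at chr8:84901732-84902031 on the plus strand, Klf2 at chr8:72318812-72319111 on the plus strand, Klf4 at chr4:55532426-55532725 on the minus strand and Klf9 at chr19:23140976-23141275 on the plus strand.
Klf1: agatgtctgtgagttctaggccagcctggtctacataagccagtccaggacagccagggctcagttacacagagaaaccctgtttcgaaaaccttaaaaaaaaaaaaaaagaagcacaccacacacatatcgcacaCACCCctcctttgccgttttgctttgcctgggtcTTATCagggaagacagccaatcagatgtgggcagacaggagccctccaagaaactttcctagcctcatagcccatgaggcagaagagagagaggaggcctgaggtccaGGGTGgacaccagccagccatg
Klf2: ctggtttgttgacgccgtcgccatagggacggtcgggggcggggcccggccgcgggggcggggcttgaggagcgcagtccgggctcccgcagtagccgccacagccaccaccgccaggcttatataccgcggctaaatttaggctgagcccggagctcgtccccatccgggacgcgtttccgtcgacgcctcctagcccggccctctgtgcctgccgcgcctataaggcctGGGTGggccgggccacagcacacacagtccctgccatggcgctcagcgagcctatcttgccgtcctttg
Klf4: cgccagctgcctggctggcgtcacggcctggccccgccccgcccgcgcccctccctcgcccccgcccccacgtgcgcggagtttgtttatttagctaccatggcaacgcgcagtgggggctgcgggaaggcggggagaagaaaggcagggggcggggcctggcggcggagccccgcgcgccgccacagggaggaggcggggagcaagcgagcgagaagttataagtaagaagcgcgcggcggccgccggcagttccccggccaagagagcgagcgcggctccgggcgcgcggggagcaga
Klf9: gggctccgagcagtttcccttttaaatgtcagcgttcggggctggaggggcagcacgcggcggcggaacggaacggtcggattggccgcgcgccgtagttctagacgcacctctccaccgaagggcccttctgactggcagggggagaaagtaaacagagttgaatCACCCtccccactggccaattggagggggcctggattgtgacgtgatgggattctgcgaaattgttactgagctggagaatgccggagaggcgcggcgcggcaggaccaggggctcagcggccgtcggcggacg
The Klf1 window held 2 CACCC boxes and 1 GATA-type motif, Klf2 and Klf9 held 1 CACCC box each, and Klf4 held neither set of letters. Of 32851 windows of the same length, 57.5% held a CACCC box and 25.4% a GATA-type motif. Matches of both kinds can share a base, which none in the Klf1 window did. Of the 10 genes, 8 had a window in the table (Klf5 and Klf10 did not), and the Klf3 window held the most CACCC boxes, 5, whereas 3.10% of all windows held 4 or more. These are matches of letters and say nothing about binding.

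The first question was whether the stromal layer changed the KLF genes in the whole culture. Klf2 was about 4 times as high on OP9 cells as on gelatin, and Klf1, Klf3 and Klf4 were higher at an adjusted p under 0.05 without passing the fold limit. In 3D+OP9 its FPKM was 122, 122 and 187, and in 3D+0.1%gelatin 34.3, 28.2 and 40.6. All OP9 libraries lay above all gelatin libraries, and replicate 3 of 3D+OP9 was the highest. The means were 144 ± 37.8 and 34.4 ± 6.16 FPKM (SD, n = 3 each), a ratio of 4.18. The log2 fold change on the log2(FPKM + 1) scale was 2.02 (SE 0.19, adjusted p = 0.00215, limma), and 1.81 without that replicate (adjusted p = 0.000746). In bulk RNA, more cells of a type and more RNA per cell cannot be told apart. A gene was called when its adjusted p was under 0.05 and its log2 fold change at least 1 in size. On that rule 1 of 10 KLF genes was called, beside 2.62% of all 12958 genes tested (2.11% higher on OP9, 0.509% lower).

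**Figure D1:**
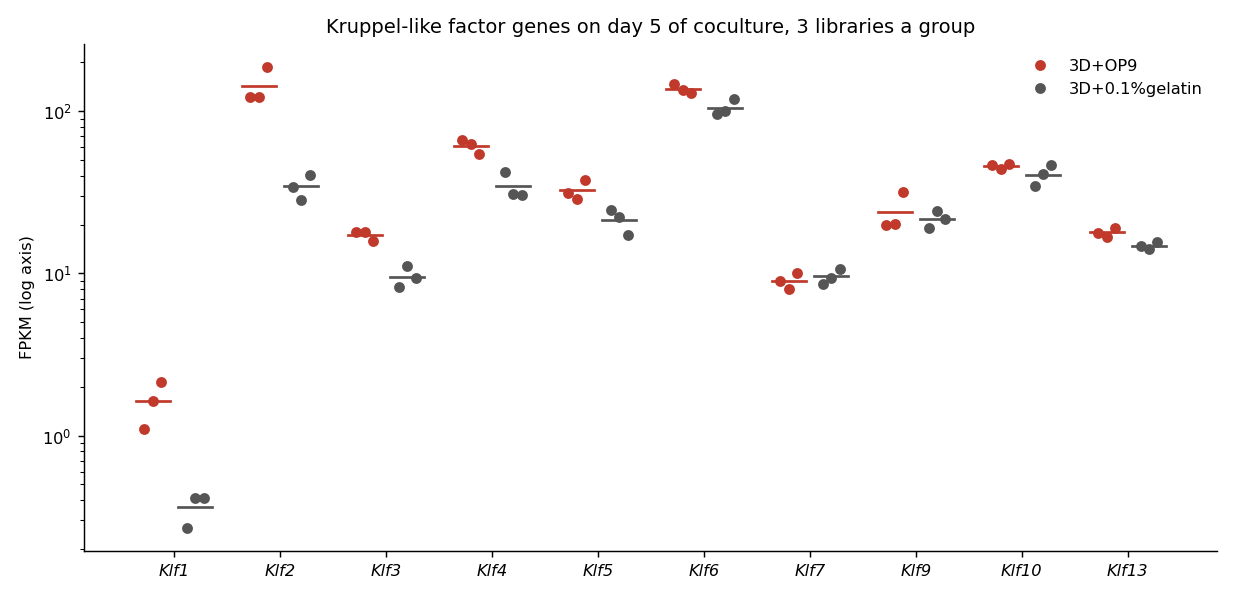
FPKM (log axis) of the 10 KLF genes in total cells on day 5 of coculture, each point 1 library and each bar the mean of 3. Klf2 was 122 to 187 FPKM in 3D+OP9 and 28.2 to 40.6 in 3D+0.1%gelatin, and the groups overlapped for Klf7, Klf9 and Klf10.

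Members with an adjusted p under 0.05 but a smaller fold were Klf1, Klf3 and Klf4. Klf4, a reprogramming factor also known in endothelium and epithelia, was at 66.3, 63.0 and 54.5 FPKM in 3D+OP9 and 42.4, 30.9 and 30.5 in 3D+0.1%gelatin (log2 fold change 0.82, SE 0.14, adjusted p = 0.0161). The 2 groups did not overlap, but the adjusted p was 0.0582 to 0.0866 without replicate 1 or 2 of 3D+OP9 or replicate 2 or 3 of 3D+0.1%gelatin. Klf3 was at 18.0, 18.1 and 15.8 against 8.27, 11.0 and 9.31 FPKM (log2 fold change 0.80, SE 0.12, adjusted p = 0.00995), again with no overlap. Klf1 was low in both, at 1.10, 1.64 and 2.15 against 0.27, 0.41 and 0.41 FPKM, where adding 1 before the log compresses the ratio of 4.49 to a log2 change of 0.93 (SE 0.17, adjusted p = 0.0187). It passed the fold limit with a pseudocount of 0.1 (1.87), after rescaling to TPM (1.29) and without 3D+OP9 replicate 1 (1.08), but its adjusted p was 0.0584 to 0.0853 without 3D+OP9 replicate 2 or any 1 gelatin library. Klf6, with 130 to 147 against 96.8 to 120 FPKM, and Klf5, with 29.0 to 37.7 against 17.2 to 24.6 FPKM, were higher in every OP9 library but had adjusted p of 0.0627 and 0.0612. Klf13 did not overlap either (adjusted p = 0.142), and Klf7, Klf9 and Klf10 overlapped, with log2 fold changes of -0.08, 0.12 and 0.18 (SE 0.12, 0.18 and 0.11).

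Markers of other cell types moved with the layer. Of the endothelial markers tested, 7 of 9 were called higher in 3D+OP9, of the erythroid markers 8 of 9 and of the stromal and fibroblast markers 4 of 10, and none was called lower. Stromal markers summed to 81.6 to 108 FPKM in 3D+OP9 and 50.5 to 64.8 in 3D+0.1%gelatin, endothelial markers to 117 to 140 and 23.1 to 39.6, and erythroid markers to 225 to 805 and 5.04 to 22.7. Immediate early genes summed to 1246 to 1616 FPKM in 3D+OP9 and 839 to 1069 in 3D+0.1%gelatin, with Fosb and Jun called higher of 15. The part of any of these in the levels of Klf2, Klf4 and Klf6 was not tested, nor was that of OP9 RNA in the total cells. Among endothelial and lymphocyte genes that KLF2 or KLF4 is known to control, 4 of 9 tested were called higher, led by Cdh5 (VE-cadherin) at 28.5 ± 3.4 against 1.73 ± 0.97 FPKM (log2 fold change 3.49) and Tek (the angiopoietin receptor). Of the naive pluripotency partners, 5 of 12 were called higher, led by Esrrb (33.1 ± 11 against 2.08 ± 0.096 FPKM), whereas none was called lower. Nanog and Pou5f1 were nevertheless at lower levels in every OP9 library, at 70.3 to 76.7 against 106 to 171 FPKM and at 327 to 503 against 579 to 653 FPKM, and the summed list was at 617 to 889.7 against 916 to 999 FPKM. None of 14 KLF coregulators was called.

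In PSCs and both cultured LSK groups Klf2 led the family by its mean share, whereas Klf1 led in fetal liver and Klf10 in bone marrow. In replicate 2 of D5-LSKCD201-, the library that stands apart, Klf2 (30.4 FPKM) was below Klf10 (38.6) and Klf3 (36.0). The 10 genes together gave 395 ± 5.25 FPKM in mESC, 250 ± 71.0 in D5-LSKCD201-, 186 ± 2.15 in D5-LSKCD201+, 335 ± 11.5 for fetal liver and 349.7 ± 19.9 for bone marrow (SD, n = 3 each). Klf2 held the largest share of that sum of mESC (36.2% ± 0.372), of D5-LSKCD201- (34.3% ± 14.4) and of D5-LSKCD201+ (28.1% ± 0.639). In FL-LSKCD201+ Klf1 held 55.2% ± 5.59, and in BM-LSKCD201+ Klf10 held 32.6% ± 3.39. D5-LSKCD201+ thus differed from mESC less in its leading member than in what stood behind it, where Klf6 held 25.6% ± 0.738 against 2.34% ± 0.124 and Klf5 0.726% ± 0.0550 against 14.6% ± 0.786. In the coculture libraries, normalised separately, Klf6 led in 3D+0.1%gelatin (36.0% ± 2.10). In 3D+OP9 Klf2 held 29.0% ± 5.21 and Klf6 28.2% ± 3.48, and Klf2 exceeded Klf6 only in replicate 3, the library that stands apart (187 against 130 FPKM). In replicates 1 and 2 Klf6 was the higher (147 and 136 FPKM against 122 and 122), and without replicate 3 the share of Klf2 was 26.0%.

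**Figure D2:**
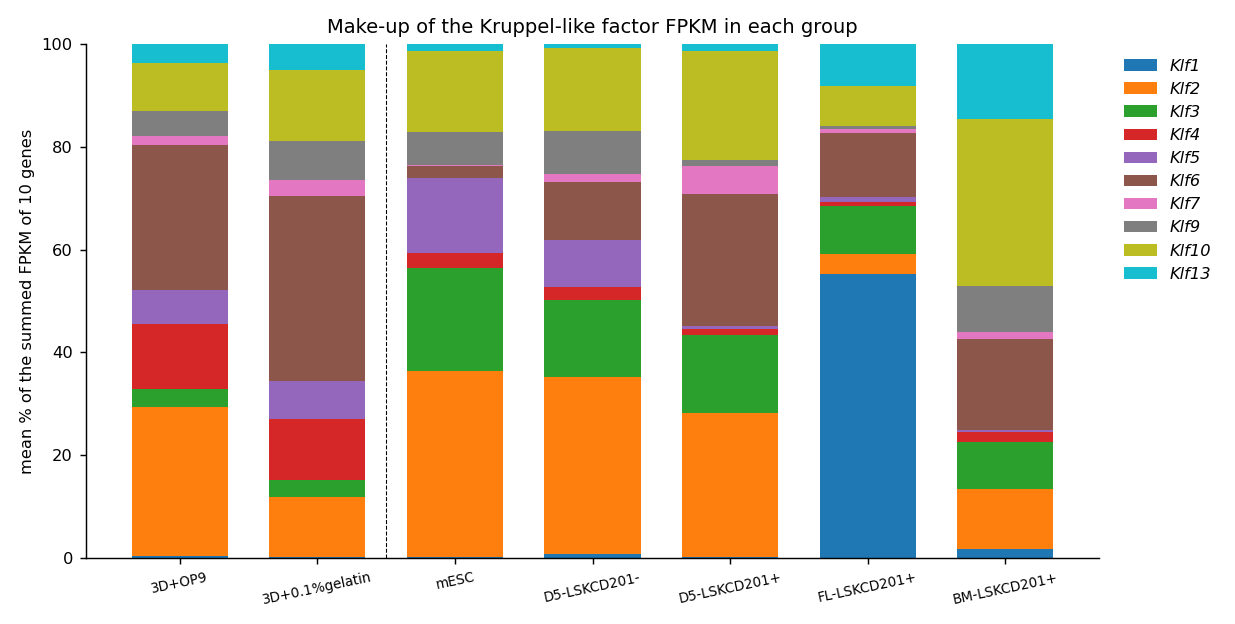
Mean share (%) of each gene in the summed FPKM of the 10 KLF genes, by group of 3 libraries, with the separately normalised coculture groups left of the dashed line. Klf1 takes 55.2% in FL-LSKCD201+ and no more than 1.72% elsewhere.

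Calls among the members, and those of the gene lists in the same comparisons, are read against those of all genes. For D5-LSKCD201+ against D5-LSKCD201-, 1 member was called higher and 4 lower of 10 tested, beside 24.7% of all genes (10.8% higher, 13.9% lower). D5-LSKCD201+ against mESC gave 2 higher and 5 lower of 9, beside 37.6% (19.5% and 18.1%). D5-LSKCD201- against mESC gave 2 higher and 3 lower, beside 14.3% (10.9% and 3.48%). Of the lower members, Klf5 and Klf13 lost their calls without replicate 2 of D5-LSKCD201-, the library that stands apart. For D5-LSKCD201+ against FL-LSKCD201+ there were 2 higher and 2 lower, beside 34.7% (15.1% and 19.6%), a share near the background. Against BM-LSKCD201+ none was higher and 5 were lower, beside 44.7% (17.5% and 27.2%), also near it. FL-LSKCD201+ against BM-LSKCD201+ gave 1 higher and 4 lower, beside 19.1% (7.78% and 11.3%). These comparisons share groups and are not independent of each other. The median log2 fold change of the tested members was -0.45, -1.43, -0.76, -0.01, -0.89 and -0.88 in the same order, and that of all genes -0.12, -0.07, 0.05, -0.16, -0.23 and -0.13. The split of all genes by direction depended on the scaling. For D5-LSKCD201+ against D5-LSKCD201- it was 1475 higher and 1904 lower, and 1704 and 1678 with quantile normalization. For D5-LSKCD201- against mESC it was 1476 and 473, and 1197 and 763 with quantile normalization.

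**Figure D3:**
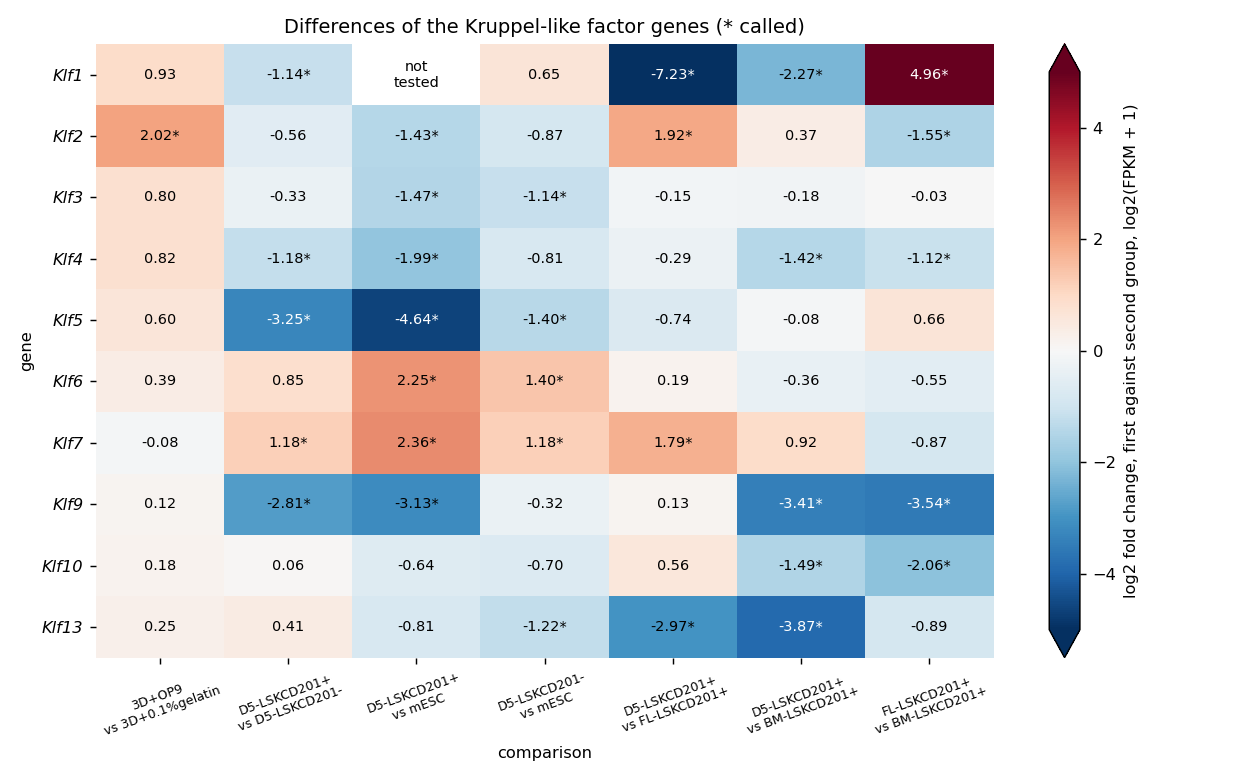
Log2 fold change of each KLF gene on the log2(FPKM + 1) scale in 7 comparisons, first group against second, with red higher and blue lower, colours saturating at the ends of the scale and * marking called genes. Klf5 and Klf9 fall by 4.64 and 3.13 in D5-LSKCD201+ against mESC, and Klf1 differs by 4.96 between FL-LSKCD201+ and BM-LSKCD201+.

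**Figure D4:**
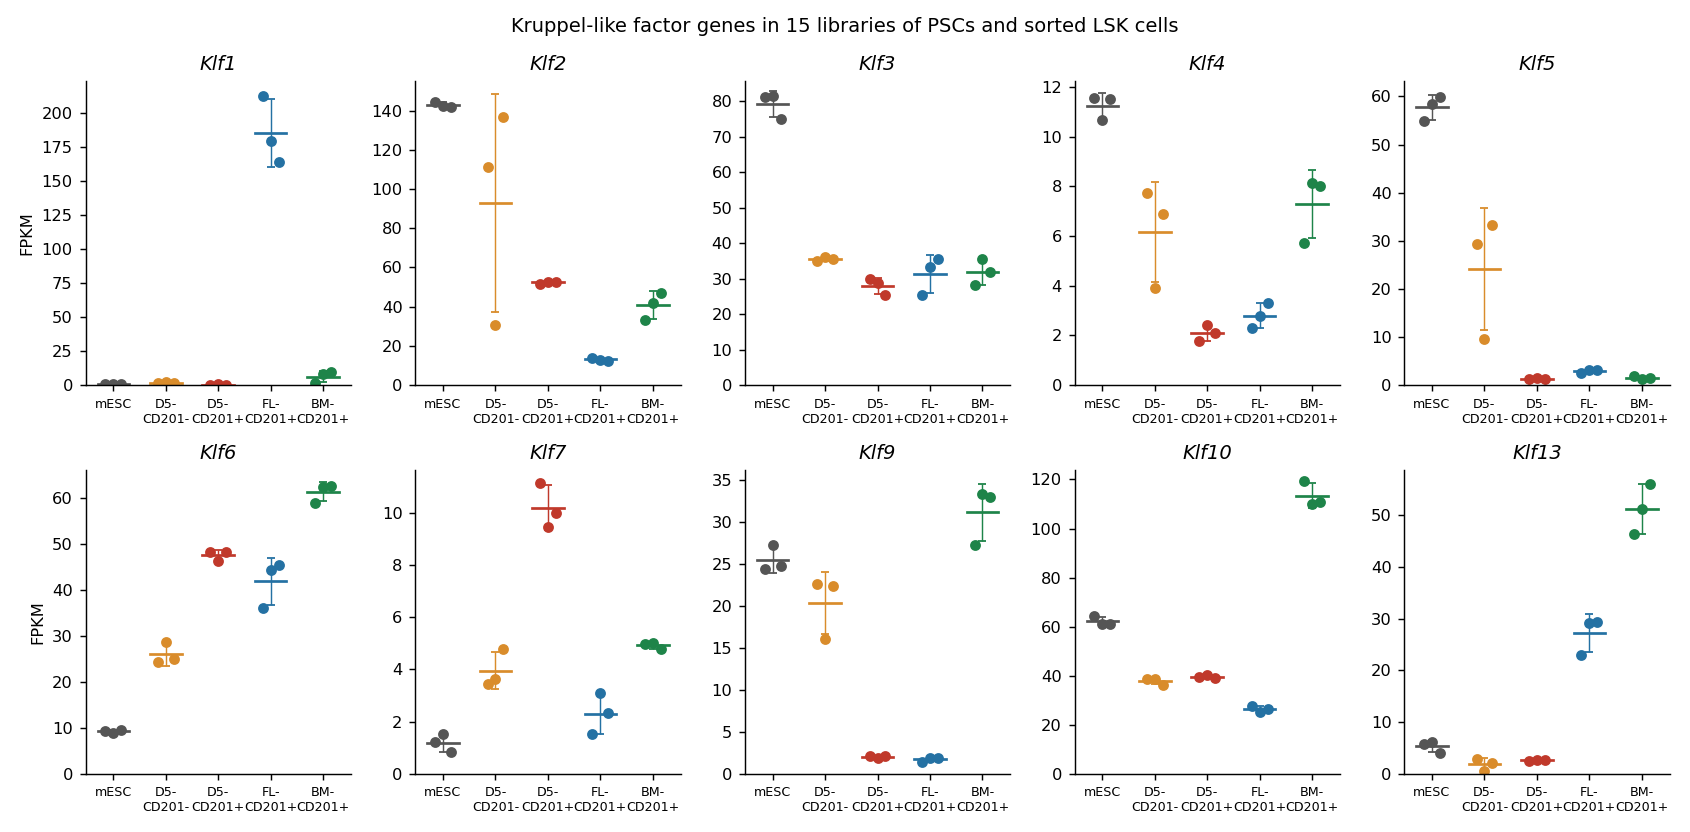
FPKM of each KLF gene in the 15 libraries of PSCs and sorted LSK cells, with points for libraries, bars for means and error bars for SD (n = 3). Klf7 peaks in D5-LSKCD201+ at 9.48 to 11.1 FPKM, Klf10 and Klf13 in BM-LSKCD201+, and replicate 2 of D5-LSKCD201- is low for Klf2 and Klf5.

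Klf1, a gene of chromosome 8 (84901928 to 84905291 on GRCm38, plus strand), was a fetal liver gene here. Its FPKM was 213, 179.5 and 164 in FL-LSKCD201+ and 1.28, 7.90 and 9.30 in BM-LSKCD201+. D5-LSKCD201- had 1.62, 2.18 and 1.39. Klf1 was at 0.902, 0.789 and 0.526 in mESC and 0.0949, 0.475 and 0.153 in D5-LSKCD201+. Every fetal liver library lay more than 10 times above every other library, and replicate 1 of BM-LSKCD201+ was as low as D5-LSKCD201-. The log2 fold change of FL-LSKCD201+ over BM-LSKCD201+ was 4.96 (SE 0.53, adjusted p = 0.00022), and 4.17 without the libraries that stand apart (adjusted p = 1.59e-08). The value for D5-LSKCD201+ was -7.23 against FL-LSKCD201+ (SE 0.15, adjusted p = 7.71e-08), -2.27 against BM-LSKCD201+ (SE 0.54, adjusted p = 0.00523; -2.96 without BM-LSKCD201+ replicate 1) and -1.14 against D5-LSKCD201- (SE 0.15, adjusted p = 0.000468), all called lower. The last was -0.98, under the fold limit, after quantile normalization, and was not tested with the filter at 1 FPKM. Against mESC it fell under the expression filter and was not tested. BM-LSKCD201+ and D5-LSKCD201- overlapped (log2 fold change of D5-LSKCD201- over BM-LSKCD201+ -1.13, adjusted p = 0.0882), and were apart by -1.94 without the libraries that stand apart (adjusted p = 1.04e-05).

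The erythroid genes that KLF1 is known to control were, like Klf1, highest in fetal liver by their summed FPKM. Of 17 tested, 16 were called higher in FL-LSKCD201+ than in BM-LSKCD201+ and none lower, with a median log2 fold change of 2.62. Of all genes, 7.78% were called higher and 11.3% lower there. In D5-LSKCD201+, 15 of 17 were called lower than in FL-LSKCD201+ (median -4.64), beside 19.6% of all genes. Beta-globin Hbb-bs was at 8651 to 16578 FPKM in the fetal liver libraries, at 96.9 to 132 in bone marrow and at 8.31 to 10.6 for D5-LSKCD201+. Alas2, the erythroid enzyme of heme synthesis, was at 53.7 ± 5.0 FPKM in fetal liver and 0.311 ± 0.22 in bone marrow. Replicate 1 of FL-LSKCD201+ had the highest Klf1 and the lowest Hbb-bs of its group. This list shares 6 of its 20 genes with the erythroid markers, of which 11 of 11 were called higher in FL-LSKCD201+ than in BM-LSKCD201+. The part of erythroid cells in the Klf1 difference was not tested. In BM-LSKCD201+ against mESC, where Klf1 was called higher, 4 of 9 listed genes tested were called higher and 4 lower. In D5-LSKCD201+ against BM-LSKCD201+, where Klf1 was called lower, 2 of 9 were called higher and 4 lower. Between D5-LSKCD201+ and D5-LSKCD201- the list was mixed, with 1 of 10 tested higher (Add2, a membrane skeleton protein) and 3 lower (Tfrc, the transferrin receptor; Gata1, the erythroid GATA factor; Dmtn, another membrane skeleton protein).

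Klf2 (chromosome 8, 72319033 to 72321656, plus strand) fell from the PSCs to fetal liver. It was at 144, 142 and 142 FPKM in mESC, whereas D5-LSKCD201- had 111, 30.4 and 137 and D5-LSKCD201+ had 51.6, 52.7 and 52.7. Bone marrow libraries had 33.3, 42.0 and 47.1, and fetal liver libraries 14.0, 12.9 and 12.4. The mESC and D5-LSKCD201+ libraries were tight, whereas D5-LSKCD201- was split by its replicate 2, which lay below D5-LSKCD201+. Klf2 was lower in D5-LSKCD201+ than in mESC (log2 fold change -1.43, SE 0.03, adjusted p = 5.02e-10) and higher than FL-LSKCD201+ (1.92, SE 0.07, adjusted p = 8.08e-07). It was 1.28 times BM-LSKCD201+, under the fold limit (0.37, SE 0.12, adjusted p = 0.0199). FL-LSKCD201+ was lower than BM-LSKCD201+ (-1.55, SE 0.14, adjusted p = 9.24e-05). Between D5-LSKCD201+ and D5-LSKCD201- the log2 fold change was -0.56 (SE 0.51, adjusted p = 0.362), and -1.22 without replicate 2 of D5-LSKCD201- (adjusted p = 6.86e-06), so that call rests on 1 library. Between D5-LSKCD201- and BM-LSKCD201+ it was 0.93 (adjusted p = 0.136), and 1.59 without that replicate (adjusted p = 0.000308).

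Endothelial and lymphocyte genes known as targets of KLF2 or KLF4 did not follow the order of Klf2 over all sorted groups. Set against D5-LSKCD201-, D5-LSKCD201+ had 9 of 10 tested called higher and 1 lower, the homing integrin Itgb7 (median log2 fold change 4.03). Of all genes, 10.8% were called higher and 13.9% lower, and Klf2 itself was not higher there. Nos3, the endothelial nitric oxide synthase, was at 117 ± 1.7 against 3.26 ± 1.4 FPKM, and Cav1, the caveolar coat protein, at 218 ± 2.8 against 12.1 ± 2.7. Against mESC, in which Klf2 was called higher, 9 of 10 of these targets were again called higher in D5-LSKCD201+. Against FL-LSKCD201+, in which Klf2 was called lower, D5-LSKCD201+ had 9 of 12 targets called higher and 3 lower. Against BM-LSKCD201+, where Klf2 was not called, it had 8 of 11 called higher and 2 lower. D5-LSKCD201+ had the highest summed FPKM of the list (682 to 701), followed by bone marrow (129 to 133), fetal liver (67.1 to 87.6), D5-LSKCD201- (40.6 to 41.6) and mESC (14.5 to 15.4). Gene by gene the order below D5-LSKCD201+ differed. FL-LSKCD201+ against BM-LSKCD201+ had 3 of 9 called higher and 2 lower (median log2 fold change 0.82). D5-LSKCD201- against BM-LSKCD201+ had 4 of 10 called higher and 3 lower (median 0.78). The list shares Cdh5 and Tek with the endothelial markers, of which 10 of 10 were called higher in D5-LSKCD201+ than in D5-LSKCD201-, and the part of endothelial-type cells was not tested. Upstream of KLF2, MEF2 factors are activated by the kinase cascade of MEKK3, MEK5 and ERK5. Of 6 such genes tested, 3 were called higher in D5-LSKCD201+ than in D5-LSKCD201-, beside 10.8% of all genes. They were Mef2c (39.6 ± 2.0 against 5.37 ± 1.2 FPKM), Mef2a and Map3k3, and Mef2c was lower than in BM-LSKCD201+ (125 ± 23 FPKM).

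**Figure D5:**
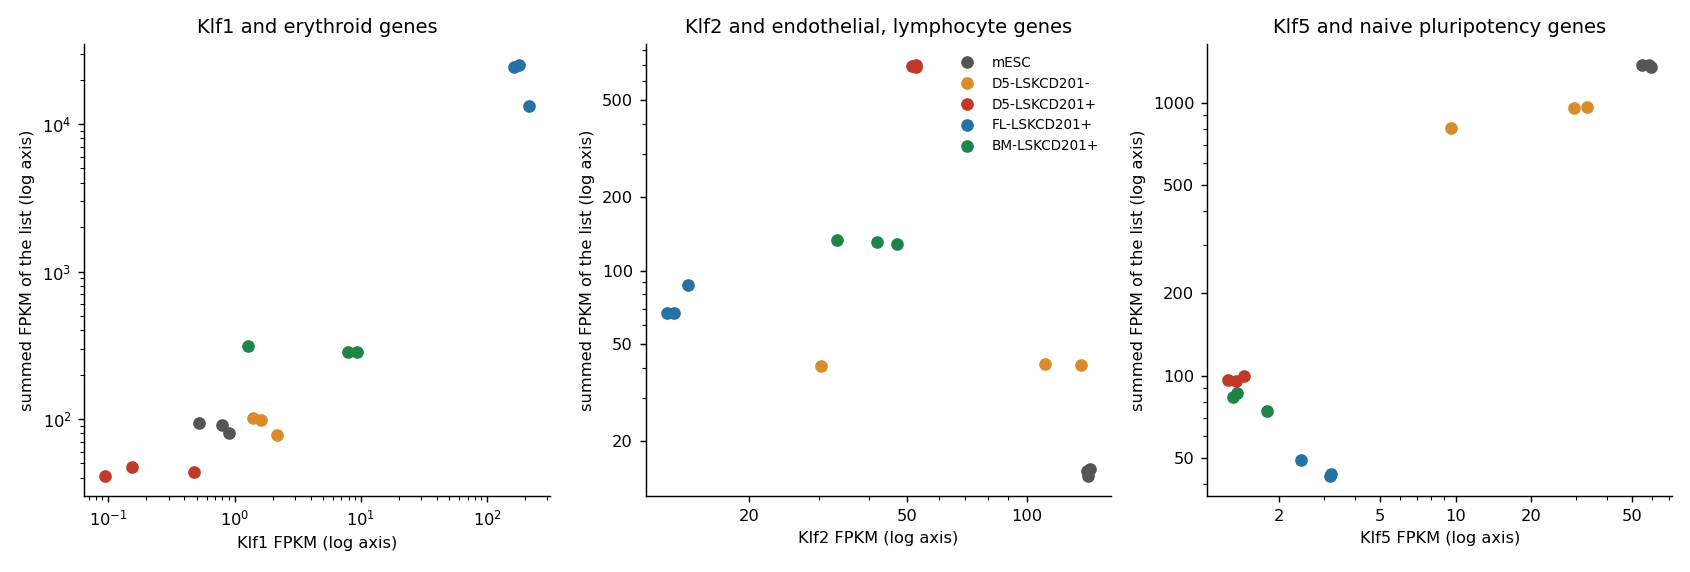
Summed FPKM of 3 gene lists against the FPKM of a KLF gene known to control them or to act with them, both on log axes, 1 point a library for 15 libraries. FL-LSKCD201+ is highest on both axes for Klf1, D5-LSKCD201+ has the highest list sum at a middle level of Klf2, and mESC is highest on both axes for Klf5.

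Klf4 and Klf5 are the other members of the pluripotency network, and both were called lower in D5-LSKCD201+ than in mESC and in D5-LSKCD201-. Klf5 (chromosome 14, 99298691 to 99313405, plus strand), also a regulator of epithelial and trophoblast cells, was at 54.9, 58.5 and 59.8 FPKM in mESC and 29.4, 9.63 and 33.3 in D5-LSKCD201-. D5-LSKCD201+ had 1.25, 1.45 and 1.35, fetal liver 2.44, 3.19 and 3.199, and bone marrow 1.79, 1.31 and 1.36. The mESC and D5-LSKCD201- libraries were all above the other 9. D5-LSKCD201+ was lower than mESC by -4.64 on the log2 scale (SE 0.06, adjusted p = 2.85e-11) and than D5-LSKCD201- by -3.25 (SE 0.42, adjusted p = 0.000347; -3.78 without replicate 2 of D5-LSKCD201-). D5-LSKCD201- was lower than mESC by -1.40 (SE 0.40, adjusted p = 0.0221), and by -0.86 without that replicate, which ends the call by its fold, and leaving out any 1 mESC library raised the adjusted p to between 0.0608 and 0.0677. Between D5-LSKCD201+ and BM-LSKCD201+, whose libraries overlapped, the value was -0.08 (SE 0.10, adjusted p = 0.497), and it turned to 0.24 with quantile normalization, 0.043 with TPM and 0.0067 without BM-LSKCD201+ replicate 1.

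Klf4 (chromosome 4, 55527143 to 55532466, minus strand) was at 11.5, 10.7 and 11.5 FPKM in mESC, whereas bone marrow had 5.70, 8.12 and 8.03 and D5-LSKCD201- 7.71, 3.90 and 6.88. Fetal liver had 2.31, 2.77 and 3.30 and D5-LSKCD201+ 1.77, 2.41 and 2.09. The last 2 groups overlapped, and all their libraries were below those of the other groups. Klf4 in D5-LSKCD201+ was below mESC (-1.99, SE 0.09, adjusted p = 4.75e-08), BM-LSKCD201+ (-1.42, SE 0.15, adjusted p = 5.61e-05) and D5-LSKCD201- (-1.18, SE 0.22, adjusted p = 0.00249). FL-LSKCD201+ was lower than BM-LSKCD201+ by -1.12 (SE 0.17, adjusted p = 0.00114), and by -0.94, under the fold limit, after quantile normalization. BM-LSKCD201+ and D5-LSKCD201- overlapped (adjusted p = 0.384).

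The partners of these factors fell with them between the cultured fractions. Of 12 naive pluripotency genes, D5-LSKCD201+ had 11 called lower against D5-LSKCD201- and 1, the signal transducer Stat3, higher. Zfp42 (REX1) was at 2.82 ± 0.68 against 338 ± 31 FPKM, Pou5f1 (OCT4) at 2.34 ± 0.49 against 221 ± 57 and Nanog at 0.425 ± 0.13 against 74.1 ± 3.4. Against mESC, D5-LSKCD201- had 2 called higher (Dppa3 and Tbx3), 2 lower (Sox2 and Esrrb) and 8 not called, beside 14.3% of all genes called, and the summed list was at 804 to 960 FPKM against 1346 to 1377 in mESC. The list shares 5 of its 12 genes with the pluripotency markers, of which 7 of 7 were called lower in D5-LSKCD201+. Epithelial markers differed in the direction of Klf5 between the D5 groups, with 7 of 7 called lower in D5-LSKCD201+ against D5-LSKCD201- and sums of 26.5 to 29.8 against 1349 to 1571 FPKM. They differed the other way from Klf5 between D5-LSKCD201- and mESC, where 5 of 7 were called higher in D5-LSKCD201- and the mESC sums were 145 to 153 FPKM, and bone marrow, with Klf5 about as low as in D5-LSKCD201+, had sums of 167 to 183 FPKM. The part of either cell type was not tested.

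Klf6 and Klf7 ran the other way. Klf6 (chromosome 13, 5861489 to 5870393, plus strand), a widely expressed factor needed for yolk sac hematopoiesis and vessels, was at 9.27, 8.82 and 9.57 FPKM in mESC, whereas D5-LSKCD201- had 24.3, 28.8 and 24.9 and D5-LSKCD201+ had 48.3, 46.3 and 48.2. Fetal liver libraries had 36.1, 44.3 and 45.4, and bone marrow libraries 59.0, 62.5 and 62.6. No 2 groups overlapped. D5-LSKCD201+ was higher than mESC by 2.25 (SE 0.05, adjusted p = 4.19e-10) and D5-LSKCD201- by 1.40 (SE 0.09, adjusted p = 1.51e-05). The step between the D5 groups was 0.85 (SE 0.08, adjusted p = 5.32e-05), under the fold limit, and those from D5-LSKCD201+ to FL-LSKCD201+ and BM-LSKCD201+ were 0.19 (adjusted p = 0.135) and -0.36 (adjusted p = 0.000233).

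Klf7 (chromosome 1, 64029447 to 64122282, minus strand), best known in neurons, was highest in D5-LSKCD201+ at 11.1, 9.48 and 9.98 FPKM. Bone marrow had 4.98, 5.01 and 4.78 and D5-LSKCD201- 3.46, 3.64 and 4.77. It was 1.51, 3.08 and 2.32 in FL-LSKCD201+ and 1.21, 1.53 and 0.828 in mESC. All D5-LSKCD201+ libraries exceeded all others. The log2 fold change of D5-LSKCD201+ was 2.36 over mESC (SE 0.12, adjusted p = 1.19e-07), 1.79 over FL-LSKCD201+ (SE 0.18, adjusted p = 0.000105) and 1.18 over D5-LSKCD201- (SE 0.13, adjusted p = 0.000129). Over BM-LSKCD201+ it was 0.92 (SE 0.08, adjusted p = 2.15e-05), just under the fold limit, but 1.23 after quantile normalization, 1.15 after rescaling to TPM and 1.03 with a pseudocount of 0.1. D5-LSKCD201- was also higher than mESC (1.18, SE 0.16, adjusted p = 0.000667). In D5-LSKCD201+ against mESC, endothelial and stromal markers moved with Klf6 and Klf7, with 10 of 10 and 7 of 10 called higher, beside 19.5% of all genes. Of 14 immediate early genes tested there, 8 were called higher and 2 lower, and the part of these genes was not tested. Against D5-LSKCD201-, 10 of 10 endothelial markers were called higher, but of 11 stromal markers tested 2 were higher and 1 lower. In BM-LSKCD201+ against mESC, where Klf6 and Klf7 were also called higher, 6 of 8 endothelial markers were called higher. Of 5 stromal markers tested there, 2 were called higher and 2 lower. Stromal markers summed to 100.4 to 104 FPKM in D5-LSKCD201+, 42.5 to 76.7 in D5-LSKCD201-, 8.46 to 10.7 in mESC, 12.6 to 15.95 for fetal liver and 6.50 to 6.85 for bone marrow, and their part was not tested. Klf7 overlaps Gm26649, Mir6899 and Gm13748, and the sources used here do not say whether counting used strand.

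Among the corepressor-binding members, Klf3 varied least. Klf3 (chromosome 5, 64708207 to 64832901 as deposited, plus strand, a locus that also holds Gm20033 and C230096K16Rik) was at 81.2, 81.4 and 75.0 FPKM in mESC and between 25.4 and 36.0 in the 12 LSK libraries. D5-LSKCD201+ was lower than mESC by -1.47 (SE 0.06, adjusted p = 3.34e-08) and D5-LSKCD201- by -1.14 (SE 0.06, adjusted p = 5.65e-06). Between D5-LSKCD201+ and D5-LSKCD201- it was -0.33 (SE 0.07, adjusted p = 0.00505), with D5-LSKCD201- at 34.9, 36.0 and 35.5 FPKM above D5-LSKCD201+ at 29.8, 28.8 and 25.4. From D5-LSKCD201+ to FL-LSKCD201+ and BM-LSKCD201+ the values were -0.15 (SE 0.14) and -0.18 (SE 0.10), both with overlap.

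Klf9 separated the groups into 2 sets. Klf9 (chromosome 19, 23141226 to 23166911, plus strand), a factor induced by glucocorticoid and thyroid hormone, was at 27.2, 33.3 and 33.0 FPKM in BM-LSKCD201+, 24.3, 27.2 and 24.7 in mESC and 22.6, 16.1 and 22.3 in D5-LSKCD201-. D5-LSKCD201+ had 2.12, 1.84 and 2.09 and fetal liver 1.45, 1.93 and 1.90. The libraries of the second set were all far below those of the first, and its 2 groups overlapped (0.13, SE 0.10, adjusted p = 0.293). Klf9 in D5-LSKCD201+ was below BM-LSKCD201+ by -3.41 (SE 0.10, adjusted p = 4.95e-08), than mESC by -3.13 (SE 0.07, adjusted p = 6.05e-10) and than D5-LSKCD201- by -2.81 (SE 0.14, adjusted p = 3.03e-06). FL-LSKCD201+ was lower than BM-LSKCD201+ by -3.54 (SE 0.13, adjusted p = 2.32e-06).

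Klf10 and Klf13 were both highest in bone marrow. Klf10 (chromosome 15, 38294413 to 38300707, minus strand), an early gene of the TGF-beta response, was at 119, 110.2 and 111 FPKM in BM-LSKCD201+ and 64.2, 60.9 and 61.2 in mESC. D5-LSKCD201+ had 39.4, 40.3 and 39.0, D5-LSKCD201- 38.7, 38.6 and 36.4, and fetal liver 27.7, 25.2 and 26.6. No 2 groups overlapped, although the D5 groups differed by 0.06 (SE 0.05, adjusted p = 0.339). D5-LSKCD201+ was lower than BM-LSKCD201+ by -1.49 (SE 0.05, adjusted p = 9.97e-08) and FL-LSKCD201+ by -2.06 (SE 0.08, adjusted p = 3.48e-06). Against mESC and FL-LSKCD201+, D5-LSKCD201+ stood at -0.64 and 0.56, under the fold limit.

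Klf13 (chromosome 7, 63886351 to 63938915, minus strand, overlapping Gm27252 and E030018B13Rik), known for Ccl5 transcription in T cells and for B cell and heart development, was the member that most clearly set the tissue groups apart. Bone marrow libraries had 46.4, 51.1 and 56.0 FPKM and fetal liver libraries 22.9, 29.2 and 29.3. Of the cultured groups, mESC had 5.66, 6.22 and 4.05, whereas D5-LSKCD201+ had 2.42, 2.66 and 2.61 and D5-LSKCD201- had 2.91, 0.566 and 2.14. Every tissue library was above every cultured one. Klf13 in D5-LSKCD201+ was below BM-LSKCD201+ by -3.87 (SE 0.08, adjusted p = 1.29e-08) and than FL-LSKCD201+ by -2.97 (SE 0.11, adjusted p = 9.18e-07). Against D5-LSKCD201- it was at 0.41 (adjusted p = 0.28), and at 0.02 without replicate 2 of D5-LSKCD201-. D5-LSKCD201- was called lower than mESC (-1.22, SE 0.33, adjusted p = 0.0167), but not without that replicate (-0.83) or without mESC replicate 1 or 2 (adjusted p = 0.0592 and 0.0612). Pan-leukocyte markers showed the same division, with 7 of 7 called lower in D5-LSKCD201+ than in either tissue group and sums of 53.9 to 58.1 FPKM against 1206 to 1738, and their part was not tested.

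Immediate early genes, which also respond to cell dissociation, moved with the bone marrow group. Of 15, 11 were called lower and 1 higher in D5-LSKCD201+ than in BM-LSKCD201+, beside 27.2% and 17.5% of all genes. In FL-LSKCD201+ 10 were lower than in BM-LSKCD201+, beside 11.3% of all genes. Their summed FPKM was 6539 to 7331 for bone marrow, 1725 to 1816 for fetal liver and 812 to 815 for D5-LSKCD201+. Nr4a1, an early response nuclear receptor, was at 896 ± 25 FPKM in bone marrow, 37.2 ± 7.4 in fetal liver and 12.5 ± 0.66 in D5-LSKCD201+. The part of this response in the bone marrow levels of Klf4, Klf6, Klf9 and Klf10 was not tested.

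D5-LSKCD201- was also set beside the tissue groups, and each tissue group beside the PSCs. D5-LSKCD201- against FL-LSKCD201+ gave 5 of 10 members called, beside 37.3% of all genes, with Klf2, Klf5 and Klf9 higher and Klf1 and Klf13 lower. Against BM-LSKCD201+ it gave 4, beside 49.3%, with Klf5 higher and Klf6, Klf10 and Klf13 lower. Without the libraries that stand apart it gave 6, beside 7192 of 14588 genes tested. FL-LSKCD201+ against mESC gave 9, beside 42.3%, with Klf1 (6.74, SE 0.13), Klf6 and Klf13 higher and Klf2 (-3.35, SE 0.07), Klf3, Klf4, Klf5, Klf9 and Klf10 lower. BM-LSKCD201+ against mESC gave 7, beside 53.1%, with Klf1, Klf6, Klf7 and Klf13 higher and Klf2, Klf3 and Klf5 lower. Klf1, Klf6 and Klf13 were thus called higher, and Klf2, Klf3 and Klf5 lower, in both tissue groups than in the PSCs. The Klf1 call for BM-LSKCD201+ (1.78, adjusted p = 0.0137) was lost without mESC replicate 3 (1.69, adjusted p = 0.0519) and was 2.47 without BM-LSKCD201+ replicate 1 (adjusted p = 5.24e-07).

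The other 7 KLF genes of the tables had low to moderate levels. Klf15, a metabolic regulator, was at 11.6 to 14.0 FPKM in D5-LSKCD201- and 6.80 to 7.68 in mESC, and under 1 in all 9 other sorted libraries (-3.44 for D5-LSKCD201+ against D5-LSKCD201-, adjusted p = 4.25e-07). Klf14, a gene related to the SIN3A-binding members, was at 1.62, 1.48 and 1.55 FPKM in D5-LSKCD201+, at most 0.293 in mESC and D5-LSKCD201-, and listed at 0 in all FL-LSKCD201+ and BM-LSKCD201+ libraries. D5-LSKCD201+ exceeded every other sorted library in it. Klf11, which also recruits SIN3A, had its highest values in BM-LSKCD201+ (23.5 to 25.6 FPKM), as Klf10 did, and was at 2.29 to 2.65 in D5-LSKCD201+ (-2.86, adjusted p = 3.34e-08). Klf8 and Klf12, CtBP-binding repressors like KLF3, were called lower when D5-LSKCD201+ was set against D5-LSKCD201-, and Klf17 did not exceed 0.27 FPKM in any sorted library.

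Levels of members were also compared along the 15 sorted libraries, as a description only, since the libraries fall into 5 groups that share culture, strain and sort. Of the pairs of members, Klf4 and Klf9 had a Pearson r of 0.91 and Klf5 and Klf6 one of -0.94 on log2(FPKM + 1), each over 15 libraries. For the 8 members whose group means spanned at least 2 on that scale, the most similar gene was Cited4 for Klf1 (r = 0.985), Fgd1 for Klf2 (0.967), Trim28 for Klf5 (0.989), Serpinf1 for Klf6 (0.996), Bin1 for Klf7 (0.986), Dnajc6 for Klf9 (0.984), Trib3 for Klf10 (0.986) and Def6 for Klf13 (0.989). By Spearman's rho the order of similar genes changed, and Cited4 ranked 74 for Klf1 and Trim28 206 for Klf5, whereas Fgd1 ranked 3 for Klf2 and Trib3 5 for Klf10.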

How the data were processed

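RNA-seq of 21 libraries was analysed from the gene tables that the authors deposited, which give FPKM per gene and library and no counts, so the depth of each library is unknown. Summed FPKM ran from 483263 to 620332 a library. According to the study's methods, total RNA was extracted with TRIzol, made into libraries with a VAHTS mRNA-seq kit and sequenced in pairs, and reads were aligned to GRCm38. The submitters' processing notes name HISAT2 2.0.5, StringTie 1.3.3 and Cuffdiff 1.3.0, and also the build mm9 with no role. The annotation of the coculture table is not given in the sources used here. There, 3578 of 22899 genes had no values and were left out. The 2 tables were normalised separately, so every test stayed within one.

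Differences were tested with limma 3.58.1 (R 4.3.3, trend) on log2(FPKM + 1), pairwise, after dropping genes whose average across the compared libraries was under 0.5 FPKM, with Benjamini-Hochberg adjustment over all genes tested. Fold changes on this scale understate those of low genes. A gene was called at an adjusted p under 0.05 and a log2 fold change of at least 1 in size. Marker and pathway lists were read by counts, never by a set test. Members, lists and tests were chosen with earlier results of these data known. Genes named are the 10 members, the other KLF genes, up to 4 called genes of a list with the largest change, the sort markers, Ptprc, marker genes used to check labels, and the genes most similar to a member. Nanog and Pou5f1 in the cocultures, Itgb7 and Stat3 were named after their values were seen.

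The study calls the replicates of the PSCs and sorted groups biological, but neither it nor the labels tie a library to a culture or animal, so p-values measure the spread between these samples. Deviations of same-numbered libraries correlated at over 0.1 in each pair for FL-LSKCD201+ against BM-LSKCD201+ (0.242, 0.202 and 0.159). Replicate 1 stood apart in both groups, so these values do not show whether the numbers pair the libraries. The best match of replicate 2 was number 3, and that of replicate 3 was number 2. Blocking on the number changed no call of a member there. A library stood apart when it was farther from each of the others of its group than 2 times their own distance. The fit was also run on simulated data, of which no result is given here. Alternatives were a pseudocount of 0.1, no filter, a filter at 1 FPKM, quantile normalization, rescaling to TPM, a constant prior variance, a replicate block, one fit over the 5 sorted groups, the adjusted p alone, leaving out each replicate and, added after seeing the data, leaving out the libraries that stand apart.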

Additional observations from a re-analysis of the deposited data

How the results depend on the processing

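Over the alternatives other than leaving out a replicate, 1011 of 1069 member values kept their direction and side of the threshold. A call was lost by 4 and gained by 45, and 9 turned direction. Of 654 values with a replicate left out, 635 kept both. Much of this was fixed in advance. The filters, the constant prior variance, the replicate block, the one fit over 5 groups and the adjusted p alone leave the fold change unchanged. The adjusted p alone can only add calls. Where 1 library stood apart, leaving it out repeats a fit with a replicate left out. The turned values were small. Klf9 on OP9 cells gave -0.092 without 3D+OP9 replicate 3, the library that stands apart (-0.092 to 0.23 with a replicate left out). Klf3 in D5-LSKCD201+ gave 0.019 against FL-LSKCD201+ and 0.0081 against BM-LSKCD201+ with TPM. Klf5 in D5-LSKCD201+ against BM-LSKCD201+ gave 0.24 with quantile normalization, 0.043 with TPM and 0.0067 without BM-LSKCD201+ replicate 1 (-0.13 to 0.0067). Klf3 in FL-LSKCD201+ against BM-LSKCD201+ gave 0.067 with quantile normalization, 0.027 without the libraries that stand apart, 0.046 without BM-LSKCD201+ replicate 2 and 0.11 without FL-LSKCD201+ replicate 1 (-0.12 to 0.11). Klf4 in D5-LSKCD201- against BM-LSKCD201+ gave 0.053 with quantile normalization and 0.014 without D5-LSKCD201- replicate 2 (-0.40 to 0.014). The cause was not tested.

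Members called in 3D+OP9 against 3D+0.1%gelatin were 2 with a pseudocount of 0.1, 2 with TPM and 4 by the adjusted p alone. Beside them, 531, 468 and 891 of 12958 genes tested were called in the same order. With a replicate left out, 1 to 2 members were called. D5-LSKCD201- against mESC gave 3 without the libraries that stand apart (1951 of 13557 genes tested) and 8 by the adjusted p alone (7418 of 13596). With a replicate left out it gave 3 to 5. By the adjusted p alone D5-LSKCD201+ against BM-LSKCD201+ gave 8 of 10, beside 11486 of 13775 genes tested, a share near the background. FL-LSKCD201+ against BM-LSKCD201+ gave 9, beside 7446 of 13503 genes, and D5-LSKCD201- against FL-LSKCD201+ 9, beside 9680 of 14336. All genes called numbered 531 in the coculture comparison with a pseudocount of 0.1, and 209 to 444 with a replicate left out, the lowest without 3D+0.1%gelatin replicate 2. By the adjusted p alone the coculture count was 891. That of D5-LSKCD201+ was 9349 against D5-LSKCD201-, 11496 against mESC, 9823 against fetal liver and 11486 against bone marrow, that of D5-LSKCD201- 7418 against mESC, 9680 against fetal liver and 11570 against bone marrow, and that of FL-LSKCD201+ against BM-LSKCD201+ 7446. Against mESC, fetal liver gave 10813 and bone marrow 12261. With all KLF genes in the denominator the leading shares were 33.2% (Klf2, mESC), 25.9% (Klf2, D5-LSKCD201+), 28.7% (Klf10, BM-LSKCD201+) and 29.9% (Klf6, 3D+0.1%gelatin).

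With the replicate block, genes called were 379 in the cocultures (339 without it), 3381 for D5-LSKCD201+ against D5-LSKCD201- and 2607 for FL-LSKCD201+ against BM-LSKCD201+ (2581 without it), and the block changed the call of 1 member, Klf1 in D5-LSKCD201- against BM-LSKCD201+ (-1.13, adjusted p = 0.0464). Quantile normalization moved the median of all genes by over 0.1 in several comparisons (from -0.23 to -0.03 in D5-LSKCD201+ against BM-LSKCD201+). Low members such as Klf1 outside fetal liver are limited by the unknown depth.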

Other observations

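The Sp factors, the nearest relatives of the KLF family, and the proteins that KLFs recruit were followed as well. Sp5, a target of Wnt signalling, was at 0.284 ± 0.19 FPKM in D5-LSKCD201+ against 32.6 ± 18 in D5-LSKCD201- (log2 fold change -4.52, adjusted p = 0.000102, limma) and 10.7 ± 0.53 in mESC. Between the D5 groups Sp8 was also called lower, and none of the 6 Sp genes tested was called higher. The 2 calls of 6 stood beside 24.7% of all genes called, 13.9% of them lower and 10.8% higher. Sp6, an epithelial Sp factor, was called lower on OP9 cells than on gelatin (5.27 ± 2.1 against 17.3 ± 5.1 FPKM, -1.56, adjusted p = 0.0187).

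Of 14 coregulators of KLF proteins, none was called between FL-LSKCD201+ and BM-LSKCD201+ by limma, and 1 higher (Fhl3) and 1 lower (Kat2b) between D5-LSKCD201+ and D5-LSKCD201-. D5-LSKCD201+ had 2 higher and 3 lower against fetal liver, where 34.7% of all genes were called, and 3 lower against bone marrow, where 44.7% were. D5-LSKCD201- had 3 lower against fetal liver (37.3% of all genes), and 1 higher and 4 lower against bone marrow (49.3%). Against mESC, where 37.6% of all genes were called, D5-LSKCD201+ had 2 higher and 4 lower, the latter led by the corepressor Ctbp2 (22.0 ± 4.7 against 165 ± 3.1 FPKM, -2.87) and the acetyltransferase Kat2b (1.21 ± 0.089 against 10.3 ± 0.81, -2.36). The acetyltransferases Crebbp and Ep300 were called lower in D5-LSKCD201+ than in either tissue group, with Crebbp at 3.51 ± 0.071 FPKM against 11.7 ± 1.9 in FL-LSKCD201+ and 16.6 ± 0.28 in BM-LSKCD201+.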
